A study of Drosophila melanogaster with 2 samples.

Results

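Of the Gcm peaks that passed the authors' test of repeatability between replicates, 1420 lay deep inside genes, in introns and away from promoters, and 4287 lay elsewhere. The 1420 made up 24.9% of the list (exact Clopper-Pearson 95% interval 23.8 to 26.0). A peak was placed here when its summit, the base of highest signal, lay over 2000 bp from the start of every protein-coding transcript, inside at least 1 protein-coding gene and outside all exons of that gene. Within the list only position was used, so neither the height of a peak nor its sequence took part in that step. The list itself goes with height: its distal intragenic peaks start at 190.46, and the pooled distal intragenic peaks left out of it reach 190.32. The rest of the list comprised 2253 promoter peaks (summit within 500 bp of a start), 1144 proximal peaks (beyond 500 and up to 2000 bp), 822 distal intergenic peaks and 68 distal exonic peaks. The peaks came from ChIP-seq, the sequencing of DNA fragments precipitated with a protein, in whole Drosophila melanogaster embryos of both sexes pooled, 0 to 16 hours old. The fly line is labelled transgenic and carries Gcm with green fluorescent protein at its C-terminus, and the chromatin, sheared by sonication to a labelled size range of 200 to 800, was precipitated with an antibody against that tag. There were 2 biological replicates, numbered 1 and 3 and of the same donor label, which form a single group with no other genotype, age or treatment beside it. Whole embryos mix all tissues, so that binding in few cells and weak binding in many cannot be told apart. Whether the flies kept untagged gcm is not given in the sources used here.

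Gcm (glial cells missing) is a zinc-containing transcription factor that turns precursor cells of the fly nervous system into glia, and it also acts in the blood cells of the embryo. It binds a short, rare DNA word whose core letters are shared by its relatives in vertebrates. Introns of developmental genes often hold enhancers, stretches of DNA through which transcription factors act on a promoter at a distance. A Gcm word was taken here as ATGCGGGT or ATACGGGT or ATGCGGGC or ATACGGGC on either strand.

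The sequences below are those of the highest distal intragenic peaks with a Gcm word, and of the highest such peak in pnt, a gene known from work on Gcm, which stood lower in height. They show what the word looks like in its surroundings, and were kept only where it lies within 50 bp of the summit. Each line gives 101 bases of the plus strand of the Release 6 (dm6) assembly, from 50 bp left to 50 bp right of the summit, in lower case with the Gcm word in capitals. Where the word lies on the minus strand, the capitals hold its reverse complement. All lie in introns of the gene named. The peak of dnt, a receptor gene, ranked between those of simj and Bx at 903, and is left out since its word lies farther away. Eip63E encodes a cyclin-dependent kinase, simj a partner of the NuRD chromatin complex, Bx a LIM-only cofactor, Pvf3 a ligand of the PDGF and VEGF type, brat a translational repressor that restrains neural stem cells, and pnt an ETS transcription factor of glia and of receptor tyrosine kinase signalling.
Eip63E, chr3L:3556473-3556573: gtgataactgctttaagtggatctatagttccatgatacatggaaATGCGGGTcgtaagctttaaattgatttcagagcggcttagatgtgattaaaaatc
plh, chr3R:4992491-4992591: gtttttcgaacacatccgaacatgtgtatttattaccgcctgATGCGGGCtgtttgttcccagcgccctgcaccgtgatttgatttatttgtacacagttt
simj, chr3L:10666866-10666966: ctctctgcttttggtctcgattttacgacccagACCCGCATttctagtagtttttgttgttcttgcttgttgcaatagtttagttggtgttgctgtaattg
Bx, chrX:18560734-18560834: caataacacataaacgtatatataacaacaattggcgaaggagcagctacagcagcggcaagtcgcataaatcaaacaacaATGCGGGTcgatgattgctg
mtgo, chr2L:16616432-16616532: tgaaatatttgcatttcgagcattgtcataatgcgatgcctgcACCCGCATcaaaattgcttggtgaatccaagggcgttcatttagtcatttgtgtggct
Pvf3, chr2L:7125520-7125620: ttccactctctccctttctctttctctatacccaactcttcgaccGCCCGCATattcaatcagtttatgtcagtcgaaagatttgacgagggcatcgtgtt
brat, chr2L:19146135-19146235: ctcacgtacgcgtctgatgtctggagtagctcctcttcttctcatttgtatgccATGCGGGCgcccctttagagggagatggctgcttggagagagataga
pnt, chr3R:23309952-23310052: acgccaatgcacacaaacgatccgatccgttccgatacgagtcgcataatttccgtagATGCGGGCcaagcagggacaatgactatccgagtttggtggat

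For contrast, the next 2 are summits among the highest of all the distal intragenic peaks, in the kinase gene Tlk and the corepressor gene Gug, and neither holds a Gcm word within 100 bp.
Tlk, chrX:3742163-3742263: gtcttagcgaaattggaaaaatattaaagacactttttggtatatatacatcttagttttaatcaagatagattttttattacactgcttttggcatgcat
Gug, chr3L:8458283-8458383: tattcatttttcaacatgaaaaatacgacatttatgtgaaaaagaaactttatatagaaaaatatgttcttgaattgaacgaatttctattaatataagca

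The height of a peak is the signal value that the authors' peak caller gave it. It has no fixed unit, its scale differs between lists, and it serves below as a description and a rank within 1 list at a time. Distal intragenic peaks had heights of 190 to 2127 with a median of 278, against medians of 316 in promoter, 306 in proximal and 294 in distal intergenic peaks. They were scarcer among the strongest than promoter or proximal peaks: 6.41% of them stood among the highest 10% of the list, against 13.7% and 10.1%. The share of distal intergenic peaks was much the same as theirs, at 6.69%. The distal intragenic peaks also differed little from the distal intergenic ones in width. Median interval width was 272 bp in distal intragenic, against 360 bp in promoter, 302 bp in proximal and 284 bp in distal intergenic peaks. In 32 cases the interval was shared with another distal intragenic summit, and 226 summits (15.9%) lay within 1000 bp of another one.

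The 10 highest distal intragenic peaks had heights of 1448 to 2127. The highest was in a first intron of sbb, which encodes a corepressor, with heights of 2127 in the list made from both replicates, 1116 in replicate 1 and 996 in replicate 3. Tlk, which encodes the tousled-like kinase, followed with 1986, and with 1191 in replicate 1 and 781 in replicate 3. The gene CG12769 had 1919.8, and Gug, the fly atrophin, had 1864. The gene osa, a subunit of the Brahma chromatin remodelling complex, held 2 of the 10, at 1840.1 and 1513, in the same intron, where the first of these lay within 500 bp of the start of a noncoding RNA. Tis11, a zinc finger protein of messenger RNA decay, had 1698, and Kdm2, a histone demethylase gene, had 1629. A peak of 1502 lay within CG46321, CG12912 and the nuclear receptor gene Hr3, which overlap. The last of the 10 was Eip63E at 1448, with 735 in replicate 1 and 709.5 in replicate 3, and it was the only 1 of the 10 with a Gcm word. It too lay within 500 bp of the start of a noncoding RNA.

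Overlap with both replicates was favoured by the choice of the list, which was thresholded for repeatability between these same replicates. The shares below describe that overlap and are no separate support for the peaks. Among each replicate's own strongest peaks, taken to the same number as in the whole list, 1388 (24.3%) in replicate 1 and 1374 (24.1%) in replicate 3 met the position rule, or 24.2% ± 0.173 (SD, n = 2). Of the 1420 peaks, 1107 (78.0%, 75.7 to 80.1) overlapped a peak of those strongest lists in both replicates, against 79.2% of promoter, 81.5% of proximal and 81.8% of distal intergenic peaks. All but 7 were found in both full lists of 30000 peaks. In the 1413 found in both, the height in replicate 1 was a median of 1.27 times that in replicate 3, with 90% of ratios between 0.823 and 1.91, and 1178 were higher in replicate 1. The scales of the lists differ, so this ratio does not compare binding.

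**Figure D1:**
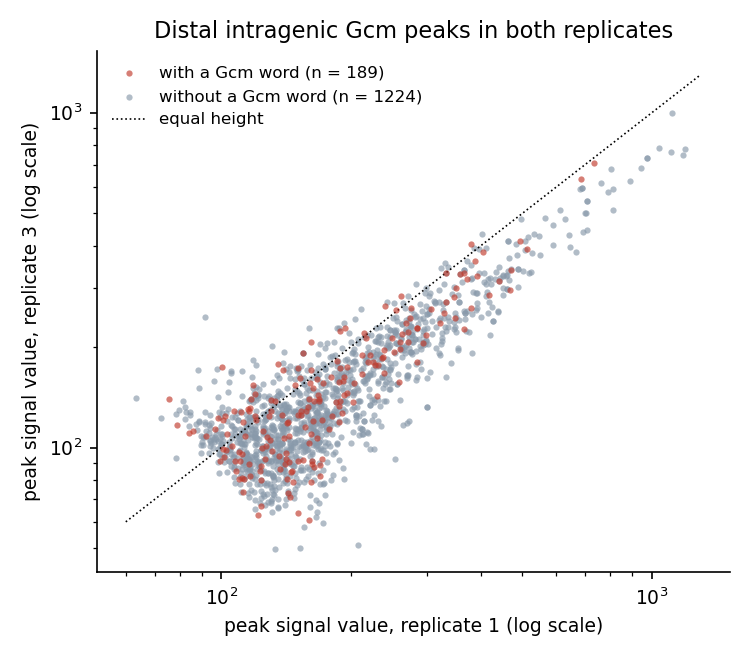
Height of the distal intragenic peaks in replicate 1 (horizontal) and replicate 3 (vertical), as the signal value of each replicate's list on log scales. Each point is 1 of the 1413 peaks found in both, red with a Gcm word (189) and grey without (1224), and most points lie below the dotted line of equal height, as the median ratio of 1.27 says.

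A Gcm word stood within 100 bp of the summit in 189 of the 1420 peaks (13.3%, 11.6 to 15.2), against 9 (0.634%) in equal windows 1000 bp to the left. The windows 1000 bp to the right held it in 18 (1.27%). The difference, 21.0-fold against the left and 10.5-fold against the right flank, passed the exact McNemar test with Benjamini-Hochberg adjustment over 12 words (two-sided, adjusted p = 6.72e-44 against the left and 4.42e-37 against the right flank). Across all peaks of the list, 9.76% had such a word. The share was 13.04% (181 peaks) in replicate 1 and 12.6% (173 peaks) in replicate 3, or 12.8% ± 0.318 (SD, n = 2), against 0.720% and 0.801% in their own flanks. Peaks are not replicates, and intervals and tests over them cover counting error only.

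The share with a Gcm word was higher in distal intragenic than in promoter peaks. It was 13.3% in distal intragenic against 4.48% in promoter peaks, a difference of 8.83 percentage points (95% interval 6.86 to 10.8, Fisher's exact adjusted p = 1.10e-19 over 36 comparisons). Against proximal peaks, with 10.3%, the difference of 3.00 points (0.4996 to 5.49) did not pass (Fisher's exact adjusted p = 0.0807). It did pass for the 819 summits over 5000 bp from a start, at 4.01 points (Fisher's exact adjusted p = 0.0168). Against distal intergenic peaks, with 14.5%, the difference was -1.17 points (-4.15 to 1.82, Fisher's exact adjusted p = 0.689). The interval of that last comparison leaves room for a few points in either direction.

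**Figure D2:**
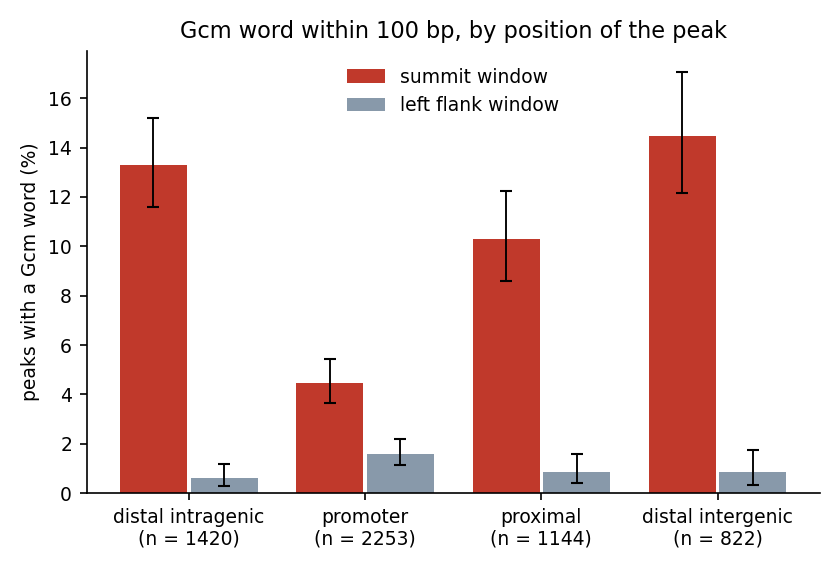
Percentage of peaks with a Gcm word within 100 bp of the summit (red) and in a window of the same length 1000 bp to the left (grey), by position of the peak. Bars are shares and lines are exact 95% intervals for counting error; the distal intragenic bar stands at 13.3% and the promoter bar at 4.48%.

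The words crowded around the summit. Of 244 Gcm words within 250 bp of a distal intragenic summit, 162 (66.4%, 60.1 to 72.3) had their centre within 50 bp of it. Within 100 bp, the median distance was 27.5 bp. The density was 1.27 words per kb of sequence scanned in the first 25 bp and 1.01 from 25 to 50 bp, and it was 0.0423 to 0.211 in the bins from 100 to 250 bp. The word of Eip63E printed above begins 5 bp left of the summit, that of brat 4 bp right of it and that of Bx 31 bp right of it.

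**Figure D3:**
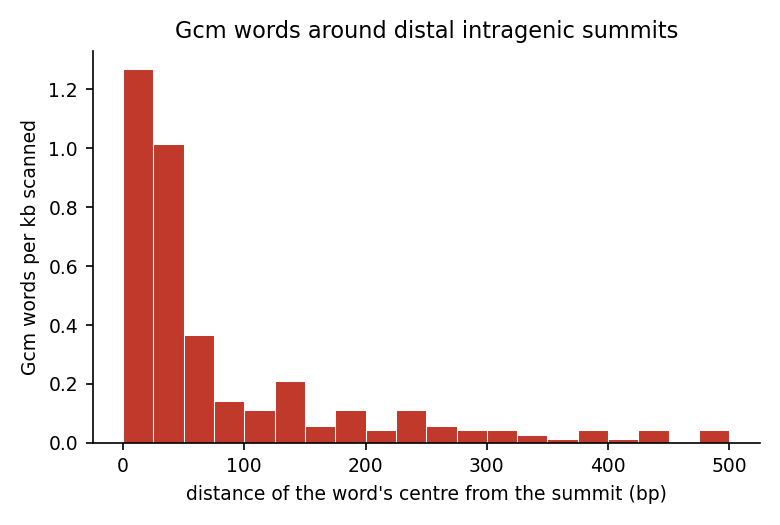
Gcm words per kb of sequence scanned, by distance of the word's centre from the distal intragenic summit in bins of 25 bp, both sides combined. The first bin stands at 1.27 and the next at 1.01 words per kb.

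The words differed in how often a peak sat on them. Introns and other sequence meeting the position rule, 42.8 Mb in all, held 1976 Gcm words, of which 195 (9.87%) lay within 100 bp of a distal intragenic summit, in windows that cover 0.660% of that sequence. Of the words with G as the third letter (ATGCGGGT and ATGCGGGC), 174 of 1306 (13.3%, 11.5 to 15.3) lay at such a summit. Of those with A (ATACGGGT and ATACGGGC), 21 of 670 (3.13%, 1.95 to 4.75) did. The same held in each replicate's strongest peaks, with 12.6% for G and 3.13% for A in replicate 1, and 12.3% for G and 2.84% for A in replicate 3. The last letter went with a smaller gap, at 14.5% for ATGCGGGT and 12.5% for ATGCGGGC. This split was chosen after the values were seen, and no test was made.

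Most peaks with a word had a single one: 180 held 1 and 9 held 2. The pairs lay 8 to 151 bp apart, the closest in ASPP, the widest in plh. Others were in Axn, a scaffold of Wnt signalling (63 bp), in zfh1, a zinc finger homeodomain gene of muscle and blood cells (149 bp), in foxo, the insulin-responsive forkhead gene (20 bp), and in the highest peak of Eip63E (69 bp). In Eip63E the second word lies outside the bases printed above.

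Within the thresholded list, peaks with and without the word had like heights. The median was 296 with a word and 277 without in the list made from both replicates, 162 and 164 in replicate 1, and 137 and 128 in replicate 3. In 4 bins of equal number by height, from the highest down, the share with a word was 14.9%, 13.2%, 12.4% and 12.7%. Below the threshold the share was lower, at 3.35% of pooled distal intragenic peaks with heights of 37.8 to 190.3.

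Among the 11 other words sought, 2 more were commoner at the summit than in the flank. GATA words (AGATAA or AGATAG or TGATAA or TGATAG), bound by GATA factors such as the blood cell factor Serpent, stood in 40.6% of summits against 29.9% of flanks (exact McNemar, adjusted p = 7.21e-09). The GAGA word (GAGAGAG), bound by the GAGA factor, which keeps chromatin open, stood in 5.85% against 2.89% (exact McNemar, adjusted p = 4.17e-04). With other windows, flanks, thresholds, starts or single replicates, the Gcm word passed in 11 of 11 alternatives and the GATA and GAGA words in 9 of 10 each. These counts include leaving out the exons of every gene, which kept the same 1420 peaks and so could not differ. The GATA word did not pass with windows of 250 bp (exact McNemar, adjusted p = 0.106), nor the GAGA word in the stronger 50% of the list (adjusted p = 0.178). E-box words (CAGCTG or CAGGTG), sites of basic helix-loop-helix factors, were less frequent at the summit, at 8.94% against 12.3% (exact McNemar, adjusted p = 0.0158), and passed in 7 of 10 alternatives, but not without replicate 1 (adjusted p = 0.212), with windows of 250 bp (adjusted p = 0.063) or in the stronger 50% (adjusted p = 0.711). The words of DREF (TATCGATA), M1BP (GGTCACAC), homeodomain factors (TAATTA), Zelda (CAGGTAG), Runt (ACCACA or ACCGCA), ETS factors (CCGGAAG or CCGGAAA), Stat92E (TTCNNNGAA) and Su(H) (TGGGAA) did not pass. With windows of 50 bp the Runt words did, as less frequent at the summit (5.92% against 8.24%, exact McNemar, adjusted p = 0.0488).

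The words that mark fly promoters were rare in distal intragenic peaks. The DREF word stood in 0.352% of them against 5.06% of promoter peaks (Fisher's exact adjusted p = 8.65e-18), and the M1BP word in 0.423% against 3.46% (adjusted p = 4.41e-10). ETS words, at 1.76% against 4.75% (Fisher's exact adjusted p = 7.22e-06), and E-box words, at 8.94% against 16.0% (adjusted p = 3.26e-09), were also less frequent, though in the stronger 50% of the list the E-box difference did not pass (adjusted p = 0.0935). The GAGA word, at 5.85% against 8.03%, did not pass (Fisher's exact adjusted p = 0.0568). It passed as less frequent with windows of 250 bp (Fisher's exact adjusted p = 2.85e-06), without replicate 1 (0.00887) and with the rule set at 1000 bp (0.0337). The other alternatives did not pass, and with 1 start per gene the GAGA difference was 1.15 points the other way. GATA words, at 40.6% against 33.7% (Fisher's exact adjusted p = 1.41e-04), and Su(H) words, the sites of Notch signalling, at 12.2% against 9.19% (adjusted p = 0.0231), were more frequent. The GATA difference did not pass with windows of 50 bp (Fisher's exact adjusted p = 0.163) or 250 bp (adjusted p = 0.153), and the Su(H) difference did not without replicate 1 (adjusted p = 0.0876), with 50 bp windows (adjusted p = 0.0668) or with gene starts only (adjusted p = 0.155). No word passed against proximal or distal intergenic peaks at the settings used throughout, but some did under alternatives. Beyond 5000 bp from a start, E-box words were less frequent than in proximal peaks (a difference of -5.11 points, Fisher's exact adjusted p = 2.25e-04), and than in distal intergenic peaks (-5.19 points, Fisher's exact adjusted p = 0.00698). With windows of 250 bp, GAGA (Fisher's exact adjusted p = 0.00912) and GATA words (0.0477) were less frequent than in proximal peaks. Other single alternatives passed for GAGA words against distal intergenic peaks with 1 start per gene (Fisher's exact adjusted p = 0.0342, more frequent), for the Zelda word against proximal peaks without replicate 1 (0.0339, less frequent) and for ETS words against proximal peaks with the rule set at 1000 bp (0.0337, less frequent). In that last setting the proximal class ended at 1000 bp. Within the distal intragenic peaks, GATA words stood in 31.2% of those with a Gcm word and in 42.1% of those without (Fisher's exact adjusted p = 0.0580 over 11 words, not passing).

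Within the sequence that met the rule, peaks thinned out with distance from a promoter. There were 33.1 distal intragenic peaks per Mb over all of it, with 49.99 per Mb at 2 to 3 kb from the nearest start, 47.0 at 3 to 5 kb, 41.3 at 5 to 10 kb, 27.5 at 10 to 20 kb and 11.8 beyond 20 kb. The median distance was 5879 bp and the largest was 86601 bp. The share with a Gcm word had no such order, at 12.2%, 9.22%, 16.3%, 15.9% and 11.1% in the same bins.

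First introns held most of the peaks. Of the 1420, 849 (59.8%, 57.2 to 62.4) lay in a first intron of some transcript of the host gene, against 37.2% of the bases that met the rule. The density was 53.3 per Mb in first introns and 21.2 per Mb in later ones. It was higher in first introns in each of the 5 distance bins, from 67.8 against 27.8 per Mb at 2 to 3 kb to 31.6 against 8.40 per Mb beyond 20 kb. A Gcm word stood in 12.4% (10.2 to 14.8) of first-intron peaks and 14.7% (11.9 to 17.9) of the others. For 341 peaks (24.0%) the nearest start belonged to a gene other than the host, as for the peaks of plh (nearest CG14662), mtgo (nearest CG4631) and brat (nearest Polr1D) printed above.

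**Figure D4:**
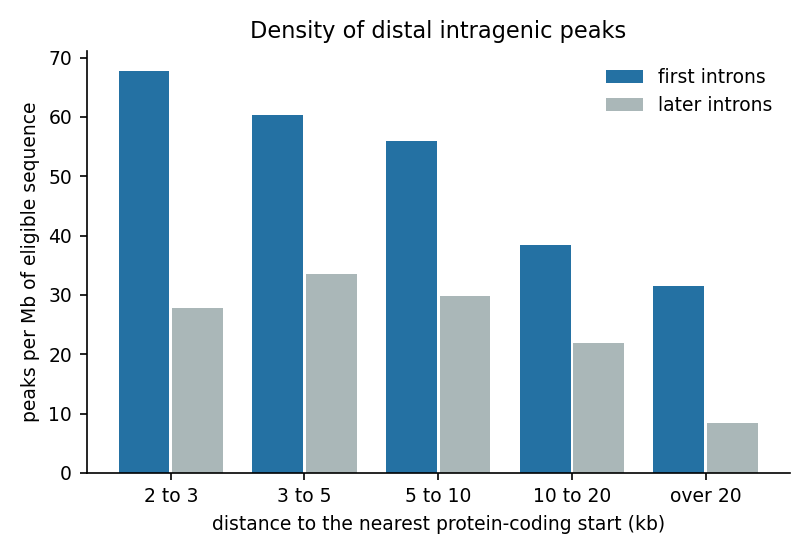
Distal intragenic peaks per Mb of sequence that meets the position rule, in first introns (blue) and later introns (grey), by distance from the nearest protein-coding start in kb. First introns stand at 67.8 and later introns at 27.8 peaks per Mb at 2 to 3 kb, and both are lowest beyond 20 kb.

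The chromosome arms held like densities, from 31.7 peaks per Mb on 3R to 37.1 on 2L, apart from the small, largely heterochromatic chromosome 4, with 4.42 per Mb (0.535 to 16.0). Its 2 peaks both lay in zfh2, a zinc finger homeodomain gene, and both held a Gcm word. Transposable elements make up 7.72% of the bases that met the rule and held 5 peaks (0.352%). How reads from repeated sequence were placed is not given in the sources used here, and the cause was not tested. Exons of noncoding RNA genes held 20 peaks (1.41%) and make up 0.801% of those bases. Bases within 500 bp of the start of such a gene held 28 peaks (1.97%) and make up 0.917%.

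The peaks gathered in few genes. Of 4364 genes with any sequence that met the rule, 635 held at least 1 peak, which is 14.6% of them. Of the peaks, 41 lay in more than 1 gene at once. Of the 635, 318 held 1 peak, 248 held 2 to 4, 58 held 5 to 9 and 11 held 10 or more. The share went with size: a peak was found in 0.894% of genes with under 1 kb of such sequence and in 52.5% of those with over 50 kb, while the density was highest, at 46.5 per Mb, in genes with 5 to 20 kb.

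The 8 genes with most peaks held 11 to 17 each. The myoblast fusion gene kirre held 17 in 302 kb, the highest at 768. The GATA cofactor gene ush held 14 in 46.5 kb, with its highest peaks at 894, 832 and 583 and a Gcm word at 3 of the 14. The zinc finger gene jing and the homeodomain gene hth held 14 each, and sbb held 13. Sema1a, an axon guidance ligand and receptor, held 12. The fibronectin-domain gene mtgo and the Wnt receptor gene fz2 held 11 each. Counted by peaks with a Gcm word, fz2 led with 4, and CG32486, ush, mtgo, Sema1a and CG43658 had 3 each. There were 159 genes with at least 1 such peak and 27 with 2 or more.

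The genes best known in connection with Gcm had few peaks of this kind, and several had little or no sequence that met the rule. The genes gcm and repo, the glial homeodomain gene, had none, and gcm2, the paralogue of gcm, had 39 bp and no peak. The engulfment receptor gene drpr had 4624 bp and loco, a regulator of G protein signalling, had 3183 bp, each with no such peak, although each had 3 summits in its gene body by any position. By contrast pnt held 7 distal intragenic peaks among 13 summits in its body. Their heights were 638, 538, 478, 299.8, 297, 244 and 197, and only the highest held a Gcm word. In replicate 1 that peak had a height of 347 and in replicate 3 of 282. The weakest of the 7 stood at 152 in replicate 1 and at 50.1 in replicate 3. The repressor gene ttk had a single peak of 271 with a Gcm word.

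The other genes were described by 16 lists of 318 gene symbols, chosen from textbook roles and from earlier results of these data. Some of the symbols name the same gene. Of the 108 genes with a peak, 9 stand in more than 1 list. In all lists but the glial one the median gene has more sequence that met the rule, called eligible here, than the 1.64 kb of the median eligible gene. Density is therefore given with each count, beside the 33.1 per Mb for all genes. That figure is not matched for gene size. Over all genes the density was 42.3 per Mb with 1 to 5 kb eligible, 46.5 with 5 to 20 kb, 36.1 with 20 to 50 kb and 21.2 with over 50 kb. Intervals given with a density cover counting error.

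The glial and plasmatocyte lists were the ones drawn in part from earlier results, so their densities are no separate support. Among glial genes, 5 of 15 with eligible sequence held 14 peaks, a density of 143 per Mb (78.3 to 240.3), and of 127 per Mb without pnt. They were pnt with 7, Nrg, a cell adhesion gene of septate junctions, with 3 and at most 420.2, Lac, an immunoglobulin-domain gene of septate junctions, with 2, and ttk and the glutamine synthetase gene Gs2 with 1 each. Both peaks of Lac, the higher at 691, held a Gcm word. In the plasmatocyte list, of the macrophage-like blood cells, 1 of 13 genes held peaks, and all 14 were those of ush, so that the density of 143 per Mb (78.3 to 240.2) is 0 without it. The crystal cell list had 2 peaks in 5 genes, both in klu, at 23.0 per Mb (2.78 to 83.0).

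Genes of the nervous system were set in 3 lists. Neural precursor genes held 7 peaks in 4 of 9 genes, at 40.7 per Mb (16.4 to 83.9) and 20.1 per Mb without brat, with the highest in grh (853) and brat (774). Genes of differentiated neurons held 2 in 18 genes, 1 in the choline acetyltransferase gene ChAT and 1 in the glutamate decarboxylase gene Gad1, at 5.57 per Mb (0.675 to 20.1). Axon guidance and adhesion genes held 62 in 18 of 29 genes, at 43.6 per Mb and 38.3 per Mb without Sema1a. The highest of these was in fra, the Netrin receptor gene (738), followed by Sema1a (639), the teneurin gene Ten-m (634) and NetA, which encodes a Netrin (610.3).

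Genes of signalling pathways had densities above 33.1 per Mb in each of 5 lists. Without the gene holding most peaks in each, densities were from 62.2 per Mb (Notch without mam) to 93.2 per Mb (Hedgehog and Wnt without fz2). Hedgehog and Wnt genes held 39 in 9 of 21 genes, at 102 per Mb (72.9 to 140.1), of which the receptor genes fz and fz2 held 10 and 11. The highest was in fz, at 1197, with 701 in replicate 1 and 502 in replicate 3. The feedback inhibitor gene nkd held 6 and the Hedgehog receptor gene ptc held 4. Receptor tyrosine kinase genes held 33 in 11 of 22, at 91.6 per Mb (63.0 to 128.6), led by aos, a secreted inhibitor of the EGF receptor (991), and Pvf3 (789). BMP genes held 23 in 8 of 16, at 86.4 per Mb (54.8 to 129.6), led by the inhibitor gene Dad (952) and the zinc finger gene shn (801). Notch genes held 19 in 6 of 11, at 84.0 per Mb (50.6 to 131.2), with 8 in the coactivator gene mam (highest 883) and 2 in the receptor gene N (highest 784). A Gcm word stood at 2 of the 19, in fng and kuz. JAK/STAT genes held 12 in 4 of 10, at 78.1 per Mb (40.4 to 136.5), led by the feedback inhibitor gene Socs36E (769.6). The median JAK/STAT gene has 3.11 kb eligible, and the interval includes the 42.3 per Mb of all genes with 1 to 5 kb. None of the 12 had a Gcm word, a count too small to set apart from the 13.3% of all distal intragenic peaks.

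Transcription and chromatin regulators were also above 33.1 per Mb. Leaving out the gene with most peaks gave 75.9 per Mb for chromatin and zinc finger genes (without jing) and 65.8 for nuclear receptor genes (without Eip75B). It gave 55.7 per Mb for homeodomain genes (without hth) and 57.8 for tracheal, midline and epidermal genes (without pyd). In the chromatin and zinc finger list ush also held 14, in 46.5 kb eligible against 101 kb for jing. Since ush was kept in, the 75.9 per Mb still rests in part on it. Chromatin and zinc finger genes held 54 peaks in 14 of 20, at 86.0 per Mb (64.6 to 112.2), with osa the highest. Nuclear receptor and ecdysone genes held 39 in 10 of 18, at 75.1 per Mb (53.4 to 102.7), led by Hr3 (1502) and Hr4 (1135). Eip75B held 10 and EcR, the ecdysone receptor gene, held 7. Homeodomain genes held 35 in 9 of 21, at 70.9 per Mb (49.4 to 98.6), with 14 in hth and 9 in Antp. Tracheal, midline and epidermal genes held 18 in 7 of 12, at 83.6 per Mb (49.6 to 132.2), led by the midline regulator gene sim (921) and by grh. Muscle genes held 31 in 8 of 20, at 46.9 per Mb, with an interval of 31.8 to 66.5 that includes 33.1, and at 39.0 per Mb without kirre. The median muscle gene has 16.6 kb eligible, and all genes with 5 to 20 kb stood at 46.5 per Mb.

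**Figure D5:**
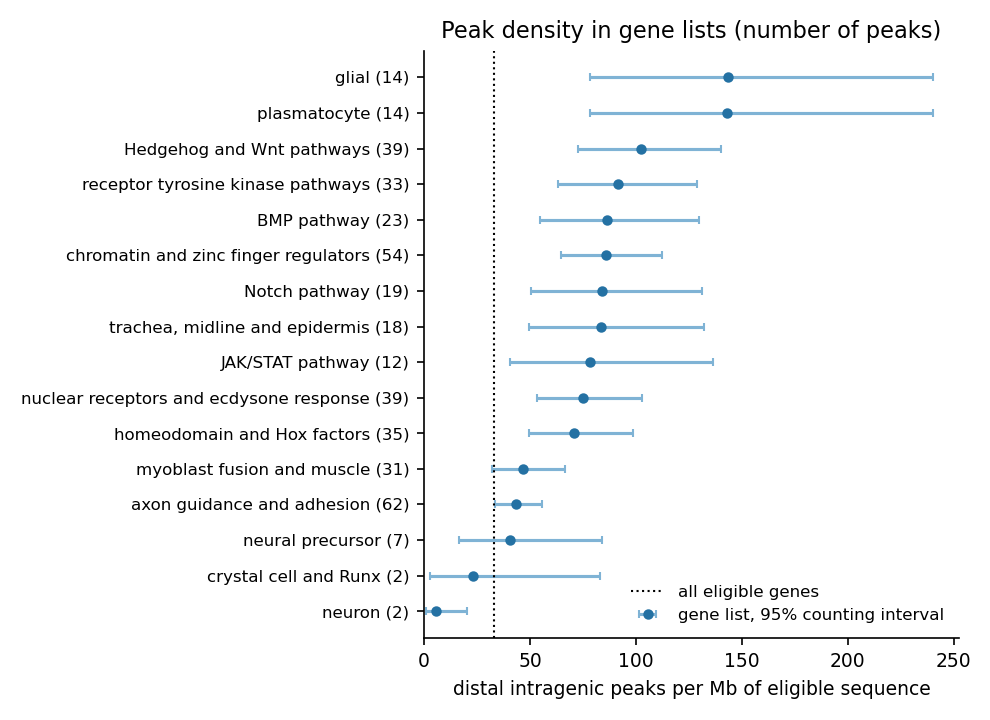
Distal intragenic peaks per Mb of sequence that meets the position rule in 16 gene lists, with the number of peaks in brackets. Points are densities, bars are 95% intervals for counting error, and the dotted line is the value for all genes, 33.1 per Mb. Glial genes stand at 143 and neuron genes at 5.57 per Mb. The glial and plasmatocyte lists were drawn in part from earlier results of these data, and all lists were chosen with those results known.

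The distance rule cut through a continuous range. Just inside it, summits lay 2003 bp from a start in RhoGAP18B (height 589) and 2021 bp in CHES-1-like (1135). Just outside, they lay 1995 bp away in shot (213) and 1974 bp away in Dif (1234).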

How the data were processed

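Peak lists of Gcm ChIP-seq from 2 replicates of whole embryos were analysed. Per the labels and the deposited file descriptions, the authors called peaks on dm6 for each replicate and for both pooled against 1 control file (not analysed here), and derived the list of 5707 thresholded by IDR, the irreproducible discovery rate. The sources used here name no aligner, no caller and no IDR threshold. The deposited height is a signal value per peak, and read depth is unknown. The deposited −log10 q-value stands at its ceiling of 4.28 in all 5707 peaks and was not used for ranking.

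Gene models are those of Ensembl release 115 (BDGP 6.54), and bases were read from RefSeq's copy of the Release 6 assembly, on 6 arms. All transcripts of 13945 protein-coding genes gave starts. Replicates were compared through their 5707 strongest peaks. Words were sought within 100 bp of the summit on both strands and tested by exact McNemar and Fisher's exact tests, two-sided, Benjamini-Hochberg adjusted, at 0.05. Intervals of shares are Clopper-Pearson, those of differences use the normal approximation, and those of densities are exact Poisson. Scripts used python 3.11.15, numpy 2.4.6, pandas 2.3.3, scipy 1.17.1 and matplotlib 3.10.9 and were tested on simulated data.

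Named genes are the hosts of the 10 highest peaks, the 8 with most peaks, the 8 highest with a Gcm word, 7 genes known from work on Gcm, and up to 4 per list. Other names were chosen after their values were seen. The members, words and lists were chosen with earlier results of these data known. Symbols Dl, dys and Notchless were matched to Delta, dysf and Nle, and 1 list entry was unmatched. Alternatives changed the starts, distance, exons, window, flank, word, threshold, overlap and replicate.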

Additional observations from a re-analysis of the deposited data

Results flagged for a closer look

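The pooled list holds 24293 peaks below the repeatability threshold, which no test above uses. Of these, 8088 (33.3%) met the same position rule, with heights of 37.8 to 190.3. A Gcm word stood within 100 bp of the summit in 271 of them (3.35%, exact 95% interval 2.97 to 3.77), against 97 (1.20%) in the windows 1000 bp to the left (exact McNemar p = 1.70e-20). The share was above that of the flank but well under the 13.3% of the thresholded peaks.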

How the results depend on the processing

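Of the values recomputed under other settings, 94 kept their direction and their side of the threshold, with counts within 1.5 times and shares within their interval, 18 moved further, 3 crossed the threshold and 0 reversed. With only the stronger 50% of the list there were 631 distal intragenic peaks, 2 words passed at the summit instead of 4, 99.5% were found in both replicates, 65.1% lay in a first intron, 21.1% lay nearest another gene's start, 9.03% of genes held a peak and the density was 14.7 per Mb. With 1 start per gene, 62.7% lay in a first intron, 41.3% nearest another gene's start, and 17.6% of genes held a peak. Beyond 5000 bp from a start there were 819 peaks, 75.6% were found in both replicates, 53.0% lay in a first intron, 28.4% nearest another gene's start, and 20.1% of genes held a peak. There the Gcm word difference to proximal peaks, then taken up to 5000 bp, passed at 4.01 points. The GATA difference to promoter peaks no longer passed at 2.88 points (windows of 50 bp) or 3.19 points (250 bp), and with 250 bp 2 words passed at the summit. The cause was not tested. With summits within 100 bp 74.3% were found in both replicates, and with a reciprocal overlap of 50% it was 52.3%. Leaving out the exons of every gene kept the same 1420 peaks, so their word shares could not change, yet these values count among the 94.

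With 1 replicate left out, the strongest peaks of the other gave 1374 to 1388 peaks, a Gcm word difference from the flank of 11.8 to 12.3 points and 3 to 4 words passed. The Gcm word difference was 8.28 to 8.89 points to promoter, 2.20 to 3.24 to proximal and -1.73 to -0.416 to distal intergenic peaks, and the GATA difference to promoter peaks was 6.15 to 6.72 points. The share in a first intron was 59.4% to 59.9%, nearest another gene's start 22.9% to 24.5%, genes holding a peak 14.4% to 14.5%, and the density 32.1 to 32.4 per Mb. No value of the share found in both replicates exists there. Leaving out summits near noncoding RNA starts, or all but the highest of summits within 1000 bp, both chosen after seeing the data, changed no call. No paired analysis was possible because there is 1 group. With 2 replicates and no read depth, the spread between embryos is poorly known, and peaks absent from the lists may still be bound.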
